A study of Drosophila melanogaster with 40 samples.

Results

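The glutathione S-transferase genes described here are the 35 genes of the deposited table whose symbol is Gst followed by D, E, S, T, O or Z and a number, out of 17490 genes in all. The letter names the class of the enzyme. The 35 genes comprise 11 of the Delta class, 14 of the Epsilon class, 3 of the Omega class, 1 of the Sigma class, 4 of the Theta class and 2 of the Zeta class, and each is listed once in the table. RNA was sequenced from whole Drosophila melanogaster of 4 genotypes. The R820W, A31P and WT lines carry a UAS transgene for that form of the feline heart protein MYBPC3, driven by the heart driver TinCΔ4-Gal4, and the attP2 control carries the same driver and the empty landing site. Each genotype was sampled as exercised males, nonexercised males, exercised females, nonexercised females and third-instar larvae, with adults 1 week old and exercised adults taken after an hour on a shaker. These 20 groups had 2 replicates each, which gave 40 libraries of pooled larvae or flies. All 4 genotypes share the driver in 1 copy and the background of w1118 crossed to y, w, and each transgene sits at the same attP2 site. The driver is a heart driver, whereas the RNA came from the whole body.

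Glutathione S-transferases join the small peptide glutathione to reactive or fat-soluble compounds, and some of them also reduce lipid peroxides. The Delta and Epsilon classes have expanded in insects and are known for the metabolism of insecticides and plant toxins. The Omega class reduces disulfides and dehydroascorbate, the Zeta class isomerizes maleylacetoacetate in the breakdown of tyrosine, and the Sigma enzyme of the fly is abundant in flight muscle and acts on products of lipid peroxidation. Many Delta and Epsilon genes are induced by the transcription factor cnc, which Keap1 holds back.

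The Delta genes all lie in 1 cluster on chromosome arm 3R, from position 12364776 to 12385624 of release 6 of the genome, a stretch of 20849 bp that holds 2 other genes. From left to right their order is GstD10, GstD9, GstD1, GstD2, GstD3, GstD4, GstD5, GstD6, GstD7, GstD8 and GstD11. Of the Epsilon genes, 10 lie in a cluster of 13198 bp on arm 2R, from 18396638 to 18409835, in the order GstE10 and then GstE1 to GstE9. The other 14 genes are spread over arms 2R, 3L, 3R and X. In the annotation, 16 of the 35 genes, GstD2 to GstD8 and GstE1 to GstE9, have a single exon in every transcript. Members of a cluster resemble each other in sequence, and the treatment of reads with several hits is not given in the sources used here, so counts could be shared between neighbours. Overlaps with a gene on the opposite strand measured 127 bp for GstE1 and GstE10, 223 bp for GstT2 and CG12926, 61 bp for GstO2 and se, 40 bp for GstE9 and imd, 33 bp for GstE12 and CG3894, and 6 bp for GstE13 and CG18659. Whether the counting used strand is not given either, so those counts could hold reads of the partner.

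Libraries held 18493813 to 26917796 counts, of which the 35 genes took 17536 to 50224. A count of 3 corresponded to 0.0906 to 0.201 CPM, the usual depth-scaled count, taken here relative to the library size after TMM scaling and the unit of every level below. At that depth, 31 of the 35 genes had a count in every library, and GstD4, GstD6, GstD7 and GstD11 had none in 4, 2, 3 and 5 libraries. Exercised adults were run on another flow cell than larvae and nonexercised adults, with exercised males and exercised females in a lane each. On the flow cell of larvae and nonexercised adults, every replicate 1 was in lane 7 and every replicate 2 in lane 8. The 8 yolk and eggshell genes checked as female markers summed to 8522 to 12690 CPM in exercised females and 12310 to 21370 CPM in nonexercised females. Their sum was 7.52 to 11.7 CPM in 6 exercised male libraries, but 3947 CPM in A31P exercised males replicate 2 and 354.5 CPM in R820W exercised males replicate 2, which go against the label of males. In nonexercised males it was 8.82 to 11.6 CPM in 7 libraries and 116 CPM in attP2 nonexercised males replicate 1. The 6 larval fat body and salivary gland genes summed to at most 434 CPM in adults and at least 55580 CPM in larvae. Of the 3 heart markers, the summed level was at most 18.2 CPM in any library.

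Summed over the 35 genes, the level was 1351 to 1545 CPM in exercised males, with a median of 1472 CPM. It was 1160 to 1338 CPM in nonexercised males (median 1250), 1075 to 1216 CPM in exercised females (median 1139), 827 to 945 CPM in nonexercised females (median 854) and 1108 to 1618 CPM in larvae (median 1209). The exercised libraries of each sex thus lay above all nonexercised libraries of that sex, and larvae overlapped with all sets but nonexercised females. RNA came from whole animals, so fewer cells of a tissue and less RNA per cell cannot be told apart in any of these values.

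Levels of different genes were compared by TPM, which takes the length of the transcript into account, as shares of the summed TPM of the 35 genes within a library. GstD1, the enzyme known for its activity on DDT, had the largest median share in each of the 5 sets. Its share was 21.4% in exercised males, 16.6% in nonexercised males, 42.0% in exercised females, 28.6% in nonexercised females and 27.9% in larvae. The 5 genes with the largest shares together took 62.6%, 62.8%, 62.2%, 54.7% and 65.9% in the same sets. GstE12 and GstT4 were among these 5 genes in every set, GstS1 in all but nonexercised females, and GstO3 in larvae alone. By class, the Epsilon share was 42.2% and 42.5% in exercised and nonexercised males, against 28.6% and 36.4% in exercised and nonexercised females and 26.2% in larvae. The median Delta share was 46.6% in exercised females and at most 33.0% in the other sets. The median Omega share was 14.2% in larvae and at most 9.29% in the adult sets. All shares in this paragraph are medians over the libraries of a set.

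**Figure D1:**
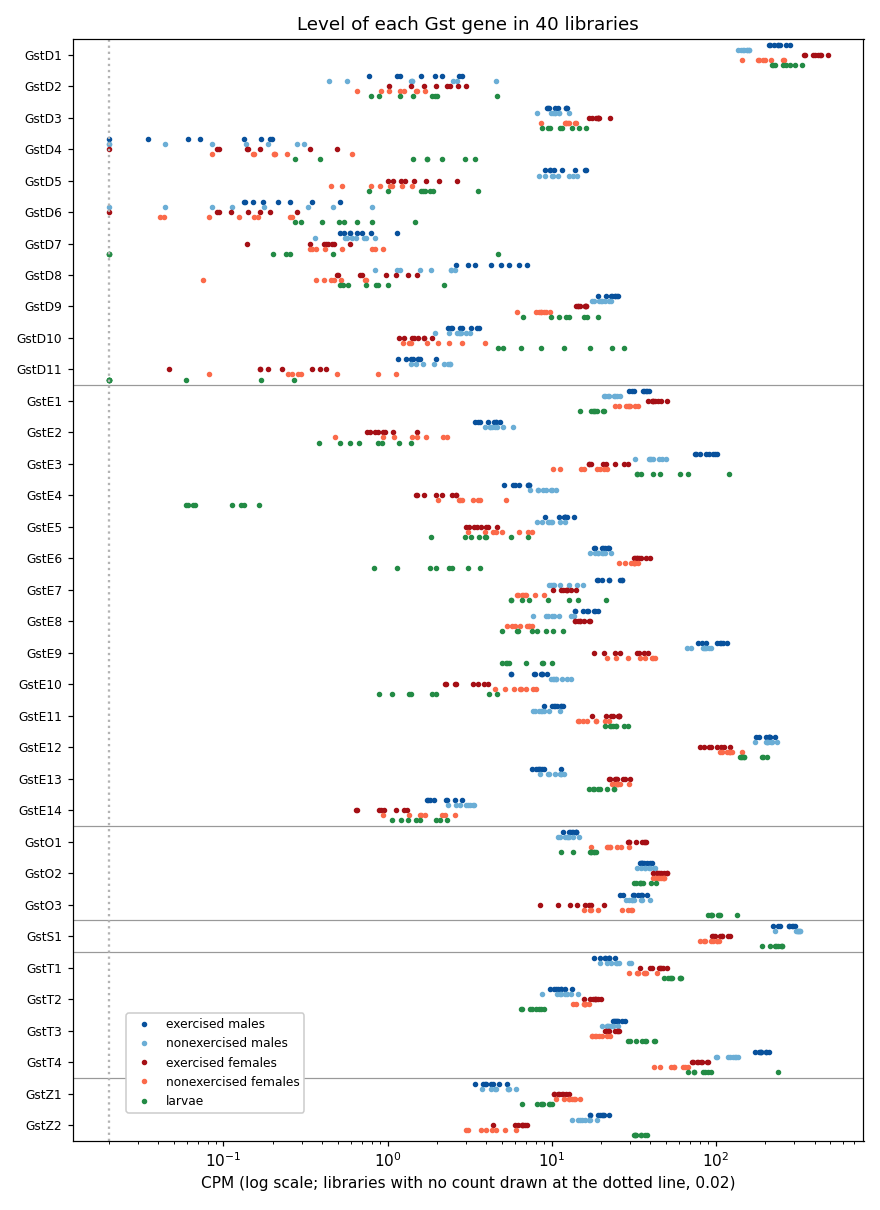
Level of each of the 35 genes in all 40 libraries, in CPM on a log scale, with 1 point per library and colours for the 5 sets. Libraries with no count are drawn at the dotted line, and horizontal lines part the classes. GstD1 lies between 137 and 480 CPM in every library, GstD5 is higher in both sets of males than in both sets of females, and GstE4 is at or under 0.164 CPM in all larvae.

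Males were compared with females within each exercise state, over 16 libraries with the genotype kept in the fit. A gene was called where edgeR's quasi-likelihood test gave a Benjamini-Hochberg adjusted p under 0.05 and the absolute log2 fold change was over 0.5. In nonexercised flies, 24 of the 33 genes tested were called, where 80.1% of all 14095 genes were, and 18 of them were higher in males and 6 lower. In exercised flies, 28 of 33 were called (86.7% of all 14210 genes), 19 higher in males and 9 lower. Among all genes 51.9% were called higher and 34.8% lower in exercised males, and 46.5% higher and 33.6% lower in nonexercised males. In both states the share of members called lower was under that of all genes and the share called higher above it. The median log2 fold change of the members was 0.67 in nonexercised and 0.88 in exercised flies, beside 0.33 and 0.69 over all genes, and with RLE size factors the median of all genes was 0.48 and 0.84. Both states shared 17 genes called higher and 6 called lower, and none was called in opposite directions. GstD9 was called higher in exercised males by 0.57 on the log2 scale, which lies under the median of all genes.

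GstD5, a Delta gene, showed the largest sex difference of the family. Its level was 9.12 to 16.3 CPM in exercised males with a median of 10.99 CPM, against 1.01 to 2.65 CPM in exercised females with a median of 1.37 CPM. In nonexercised flies it was 8.39 to 14.4 CPM (median 10.5) in males and 0.454 to 1.41 CPM (median 0.963) in females. No male library fell as low as any female library. The log2 fold change was 2.96 ± 0.12 (SE) in exercised flies (adjusted p = 9.2e-11) and 3.61 ± 0.17 in nonexercised flies (adjusted p = 8.7e-12).

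GstD8 and GstD11, at the right-hand end of the same cluster, had the same direction. Between GstD5 and GstD8 lie GstD6, which was not tested in either state, and GstD7, which was not called in nonexercised flies. In exercised flies GstD7 was called higher in males, with a log2 fold change of 0.70 beside the median of 0.69 over all genes. GstD8 was at 2.62 to 7.08 CPM in exercised males (median 4.60), against 0.493 to 1.51 CPM in exercised females (median 0.842), and at 0.843 to 2.59 CPM in nonexercised males (median 1.71), against 0.0752 to 0.734 CPM in nonexercised females (median 0.461). Its log2 fold change was 2.33 ± 0.23 in exercised and 1.91 ± 0.28 in nonexercised flies. GstD11 had medians of 1.47 CPM in exercised males and 0.208 CPM in exercised females, and of 2.06 CPM in nonexercised males and 0.291 CPM in nonexercised females. Its log2 fold change was 2.64 ± 0.23 and 2.26 ± 0.32 in exercised and nonexercised flies, and the sexes did not overlap in either state. GstD1 went the other way, at 210 to 282 CPM in exercised males (median 239), against 344 to 480 CPM in exercised females (median 409), a log2 fold change of -0.79 ± 0.07 (adjusted p = 1.1e-07). In nonexercised flies GstD1 was at 137 to 160 CPM in males (median 153) and 144 to 259 CPM in females (median 196), and the log2 fold change of -0.43 ± 0.08 did not reach the threshold of size.

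Of the 14 Epsilon genes, 9 were higher and 3 lower in exercised males than in exercised females, and 10 were higher and 3 lower in nonexercised males. GstE2 was at 3.39 to 4.82 CPM in exercised males (median 4.27) and 0.747 to 1.51 CPM in exercised females (median 0.904). In nonexercised flies it was at 3.94 to 5.79 CPM in males (median 4.41) and 0.478 to 2.29 CPM in females (median 1.45). The log2 fold changes of GstE2 were 2.06 ± 0.13 and 1.71 ± 0.18 in exercised and nonexercised flies, without overlap. GstE3 had 75.0 to 101 CPM in exercised males (median 88.8), against 16.9 to 29.0 CPM in exercised females (median 21.1), and 32.3 to 49.8 CPM in nonexercised males (median 41.0), against 10.3 to 21.9 CPM in nonexercised females (median 17.3). Its log2 fold change was 2.01 ± 0.09 in exercised and 1.34 ± 0.09 in nonexercised flies. GstE9 had medians of 104 CPM in exercised males and 29.6 CPM in exercised females (log2 fold change 1.75 ± 0.14), and of 85.4 CPM in nonexercised males and 35.6 CPM in nonexercised females (1.31 ± 0.06). The 3 genes lower in males were GstE6, GstE11 and GstE13, the largest fall being that of GstE13, by 1.57 ± 0.08 in exercised and 1.27 ± 0.07 in nonexercised flies on the log2 scale. GstE14, also known as noppera-bo and needed for the synthesis of the moulting hormone ecdysone, was higher in males by 1.12 ± 0.15 and 0.75 ± 0.17 in exercised and nonexercised flies.

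Within the small classes, members went in both directions. GstS1, the Sigma gene, was at 222 to 304 CPM in exercised males (median 279), against 95.5 to 122 CPM in exercised females (median 108), and at 231 to 326 CPM in nonexercised males (median 318), against 80.3 to 104 CPM in nonexercised females (median 94.7). The sexes did not overlap, and the log2 fold change of GstS1 was 1.30 ± 0.06 in exercised and 1.71 ± 0.06 in nonexercised flies. The Zeta genes, which lie next to each other on arm 3R, went opposite ways. GstZ2 was at 17.1 to 22.5 CPM in exercised males (median 19.99) and 4.41 to 7.09 CPM in exercised females (median 6.60), and at 13.3 to 18.9 CPM in nonexercised males (median 15.7) and 3.01 to 6.04 CPM in nonexercised females (median 4.17). Its log2 fold change was 1.61 ± 0.08 and 1.91 ± 0.10 in exercised and nonexercised flies, whereas that of GstZ1 was -1.46 ± 0.08 and -1.39 ± 0.10. GstO3 and GstT4 were higher in males, GstO1 and GstT1 lower, and GstO2 and GstT3 were not called in either state. The call of GstT1 in nonexercised flies (-0.52 ± 0.08) fell short of the size threshold without A31P nonexercised males replicate 1, WT nonexercised males replicate 1 or WT nonexercised females replicate 1, and that of GstO3 (0.53 ± 0.06) without attP2 nonexercised males replicate 2. The GstT1 call was also lost with DESeq2, with RLE size factors and with library totals free of ribosomal and 7SL RNA (down to 0.366 in size), and the call of GstE6 in nonexercised flies with DESeq2 and RLE size factors (0.474 in size).

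Markers of other organs moved with sex. All 6 testis genes and all 4 accessory gland genes were higher in males and all 8 yolk and eggshell genes lower, in both exercise states. Summed testis genes were at 680 to 947 CPM in exercised males against at most 0.539 CPM in exercised females, and at 671 to 973 CPM in nonexercised males against at most 0.816 CPM in nonexercised females. The 3 Malpighian tubule genes summed to 105 to 139 CPM in exercised males and 24.5 to 47.1 CPM in exercised females, and to 89.1 to 139 CPM in nonexercised males and 47.2 to 72.8 CPM in nonexercised females. The part of these organs in the sex differences of the glutathione S-transferase genes was not tested. Exercised males and exercised females were in different lanes, so lane and sex cannot be told apart among exercised flies, while nonexercised males and females shared lanes. Without A31P and R820W exercised males replicate 2, the exercised male libraries with female transcripts, the number called in exercised flies was again 28, with 19 higher and 9 lower. Without attP2 nonexercised males replicate 1, whose yolk and eggshell sum was also raised, 18 were higher and 7 lower in nonexercised males.

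**Figure D2:**
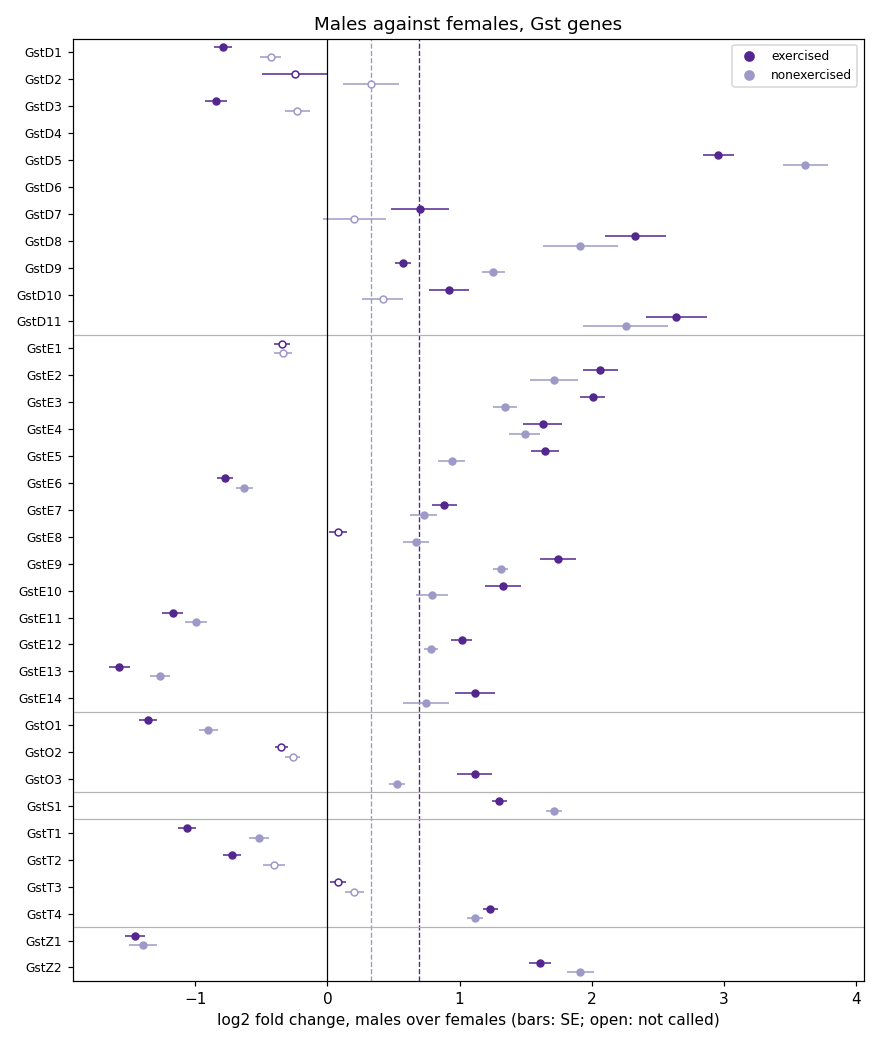
Log2 fold change of males over females for each gene tested, with bars of 1 SE, exercised flies in dark and nonexercised flies in light points, and open points for genes not called. The dashed lines mark the median of all genes, 0.69 and 0.33, and GstD5, GstD11 and GstD8 lie farthest to the right.

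Nonexercised adults were compared with larvae of the same flow cell, and the larvae were the same 8 libraries in both comparisons. In nonexercised males 23 of 35 genes were called (74.7% of all 14271 genes), 12 higher and 11 lower than in larvae. In nonexercised females 24 of 35 were called (74% of all 13575 genes), 9 higher and 15 lower. Among all genes 40.3% were called higher and 34.4% lower in males, and 34% higher and 40% lower in females. In both sexes a smaller share of members than of all genes was called. The median log2 fold change of the members was 0.33 in males and -0.40 in females, beside 0.06 and -0.06 over all genes. The balance of directions depended on the scaling. With library totals free of ribosomal and 7SL RNA, 17 genes were higher and 10 lower in males, 11 were higher and 10 lower in females, and the median of all genes was 0.24 and 0.12. Ribosomal RNA took 7.44% to 11.8% of counts in nonexercised males and 6.48% to 13.5% in nonexercised females, against 18.4% to 27.4% in larvae, and its part in these differences was tested by that scaling alone.

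In the Epsilon cluster, GstE4, GstE6 and GstE9 were higher in adults of both sexes. GstE4 was at 7.36 to 10.6 CPM in nonexercised males (median 9.07) and 2.03 to 5.24 CPM in nonexercised females (median 3.09), against 0.0594 to 0.164 CPM in larvae (median 0.0901), where each library had 1 to 3 counts. Taken over the 8 libraries of each set, the ratio of adult to larval level was 90.8 in males (exact 95% interval for counting error 53.0 to 171) and 32.9 in females (19.1 to 62.1). GstE6 was at 17.1 to 23.0 CPM in males (median 19.8) and 25.9 to 33.5 CPM in females (median 31.6), against 0.832 to 3.64 CPM in larvae (median 2.16). All adult libraries lay above all larval libraries for GstE4 and GstE6, and the log2 fold change of GstE6 was 3.26 ± 0.21 in males and 3.85 ± 0.21 in females. GstE9 was at 66.9 to 93.4 CPM in males and 21.8 to 42.5 CPM in females, against 4.98 to 10.1 CPM in larvae, with log2 fold changes of 3.60 ± 0.14 and 2.25 ± 0.14. GstE2 and GstE10 were also called higher in both sexes, GstE2 in females not without R820W nonexercised females replicate 2 (adjusted p = 0.0535), and not all neighbours shared this. GstE7 and GstE8 were not called in males, and GstE3 was lower in females than in larvae, by 1.70 ± 0.22, and not called in males (-0.31 ± 0.21). GstE7 in females (-0.51 ± 0.22, adjusted p = 0.0433) was called with all 16 libraries but missed a threshold without 1 of 13 libraries in turn, with the lanes of larvae and nonexercised flies paired as a replicate block (adjusted p = 0.0529) and under 2 other settings, with an adjusted p of up to 0.151. Without R820W larvae replicate 2 its log2 fold change was -0.19.

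In the Delta cluster, GstD11 at the right-hand end was higher in adults, and GstD4 in the middle and GstD10 at the left-hand end were lower. GstD11 had 8 counts in all larvae, with none in 5 of the 8 libraries, and its ratio to the larval level was 32.5 in males (exact 95% interval 16.3 to 75.8) and 7.44 in females (3.62 to 17.8). GstD4 was at 0 to 0.309 CPM in males (median 0.111) and 0.0852 to 0.608 CPM in females (median 0.204), against 0.274 to 3.43 CPM in larvae (median 1.74). The larval level of GstD4 was 14.3 times that of males (9.14 to 23.6) and 7.66 times that of females (5.54 to 10.8), though single libraries overlapped. GstD10 was at 1.96 to 3.18 CPM in males (median 2.73) and 1.24 to 3.92 CPM in females (median 1.89), against 4.70 to 27.8 CPM in larvae (median 10.3), all larvae being above all adults, with log2 fold changes of -2.14 ± 0.33 and -2.60 ± 0.34. GstD5, GstD8 and GstD9 went apart by sex, higher than in larvae in males and lower in females. For GstD5 the larval range was 0.766 to 3.54 CPM (median 1.68), and the log2 fold change was 2.72 ± 0.25 in males and -0.94 ± 0.31 in females. GstD8 in females lost its call without A31P larvae replicate 2 or attP2 larvae replicate 2, with an adjusted p of up to 0.0648, and GstD9 in females (-0.60 ± 0.14) lost its own without attP2 larvae replicate 1. The female calls of GstD8 and GstD9 were both lost with library totals free of ribosomal and 7SL RNA as well. GstD1 was at 137 to 160 CPM in males and 144 to 259 CPM in females, against 221 to 337 CPM in larvae. It was called lower in males (log2 fold change -0.79) and not called in females (-0.40). GstD6, at low counts, was called lower in both sexes, and its call in males was lost in 3 alternatives.

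Outside the clusters, the Zeta gene GstZ2 was at 13.3 to 18.9 CPM in males and 3.01 to 6.04 CPM in females, against 31.95 to 38.3 CPM in larvae (median 33.8). No adult library reached the larval range, and GstZ2 fell by 1.09 ± 0.07 in males and 3.05 ± 0.11 in females on the log2 scale (adjusted p = 1.7e-08 and 1.3e-10). GstO3 was at 28.3 to 40.02 CPM in males and 15.6 to 30.98 CPM in females, against 90.0 to 136 CPM in larvae, and fell by 1.63 ± 0.06 and 2.20 ± 0.06. GstS1 was lower than in larvae in females, by 1.34 ± 0.06, and its difference in males (0.42 ± 0.06) was under the size threshold. GstE11, GstT1 and GstT3 were called lower in both sexes, and GstT2 higher in both. GstZ1 was called higher in females (log2 fold change 0.54) and lower in males (-0.81). The female calls of GstE11 and GstZ1 were lost in 9 and 4 alternatives. Those of GstT1 in females and GstT3 in males were lost with library totals free of ribosomal and 7SL RNA.

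Single larval libraries stood out in several genes. R820W larvae replicate 2 had 121 CPM of GstE3, 241 CPM of GstT4, 27.8 CPM of GstD10 and 21.3 CPM of GstE7, the highest larval value of each. The next highest larval library had 68.0 CPM of GstE3 and 93.7 CPM of GstT4. For GstD10 and GstE7 the next highest was A31P larvae replicate 1, at 23.3 and 14.5 CPM, so GstD10 was not high in 1 library alone. In attP2 larvae replicate 2, GstD7 was at 4.74 CPM and GstD2 at 4.61 CPM, while the other 7 larval libraries had at most 0.468 CPM of GstD7 and 1.99 CPM of GstD2. The Malpighian tubule genes, midgut genes and heart markers also had their highest larval sums in attP2 larvae replicate 2, at 68.5, 1898 and 18.2 CPM, against larval medians of 31.9, 1026 and 4.94 CPM. Their part in the levels of the glutathione S-transferase genes was not tested.

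**Figure D3:**
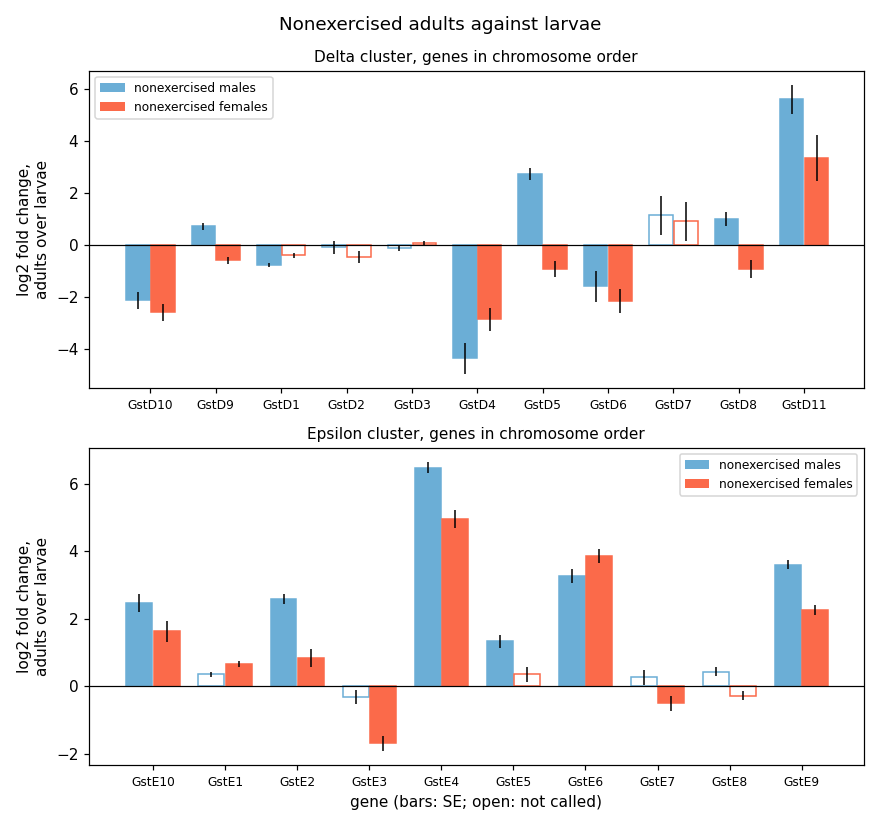
Log2 fold change of nonexercised adults over larvae for the Delta genes (upper panel) and the clustered Epsilon genes (lower panel), in chromosome order, males in blue and females in red, with bars of 1 SE and open bars for genes not called. GstE4, GstE6 and GstE9 are called higher in both sexes, GstE3 points down, and GstD5, GstD8 and GstD9 point up in males and down in females.

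The study set exercised flies against nonexercised flies to ask how a bout of exercise bears on gene expression. All exercised flies were on another flow cell than all nonexercised flies, so exercise and flow cell cannot be told apart. In males 8 of 34 genes were called (11.3% of all 14090 genes), 7 higher after exercise and 1 lower. Among all genes, 5.76% were called higher and 5.54% lower. In females 16 of 34 genes were called (41.7% of all 11263 genes), 12 higher and 4 lower, while 16.2% of all genes were called higher and 25.5% lower. The median log2 fold change of the members was 0.10 in males and 0.25 in females, and that of all genes 0.01 and -0.02. GstD1, GstD8, GstE1, GstE7, GstE8 and GstT4 were called higher in both sexes and GstE10 lower in both, and each of these went the same way in all 4 genotypes. GstE3 was called in males alone. GstD2, GstD3, GstD5, GstD9, GstO1 and GstZ2 were called higher, and GstE4, GstE14 and GstO3 lower, in females alone. In females the call of GstE4 was lost without A31P exercised females replicate 1 (log2 fold change 0.47 in size) and that of GstO3 without WT exercised females replicate 2 (-0.49).

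GstD1 was at 210 to 282 CPM in exercised males (median 239), against 137 to 160 CPM in nonexercised males (median 153). In females it was at 344 to 480 CPM after exercise (median 409), against 144 to 259 CPM without (median 196). The groups did not overlap in either sex, and GstD1 rose by 0.67 ± 0.05 in males (adjusted p = 4.4e-07) and 1.04 ± 0.09 in females (adjusted p = 2.2e-06) on the log2 scale. GstD8 rose by 1.42 ± 0.21 in males, with 2.62 to 7.08 CPM in exercised and 0.843 to 2.59 CPM in nonexercised flies. In females it was at 0.493 to 1.51 CPM after exercise and 0.0752 to 0.734 CPM without, ranges that overlapped, with a rise of 1.02 ± 0.33 that lost its call without WT exercised females replicate 2 (adjusted p = 0.0517). GstD9 was at 14.0 to 16.3 CPM in exercised females (median 15.4) and 6.16 to 9.78 CPM in nonexercised females (median 8.62), without overlap, and rose by 0.89 ± 0.08. In males the corresponding ranges of GstD9 were 19.2 to 25.5 and 17.7 to 22.9 CPM, with a log2 fold change of 0.19 ± 0.07.

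Of the Epsilon genes, GstE8 was at 13.9 to 19.1 CPM in exercised males (median 16.5), against 7.72 to 13.7 CPM in nonexercised males (median 10.3), and at 13.9 to 17.1 CPM in exercised females (median 14.9), against 5.35 to 7.60 CPM in nonexercised females (median 6.76). Each exercised library was above each nonexercised library of its sex, and GstE8 rose by 0.65 ± 0.08 in males and 1.25 ± 0.08 in females. Its left-hand neighbour GstE7 rose by 0.97 ± 0.11 in males, with 19.0 to 26.8 CPM in exercised and 9.60 to 15.6 CPM in nonexercised flies, and by 0.83 ± 0.08 in females. GstE3 was at 75.0 to 101 CPM in exercised males and 32.3 to 49.8 CPM in nonexercised males, a rise of 1.08 ± 0.07. In females GstE3 had 16.9 to 29.0 CPM after exercise and 10.3 to 21.9 CPM without, and its log2 fold change of 0.43 ± 0.11 was under the size threshold. GstE10 was at 5.66 to 9.36 CPM in exercised males, against 9.88 to 13.2 CPM in nonexercised males, and at 2.24 to 4.09 CPM in exercised females, against 4.51 to 8.00 CPM in nonexercised females. It fell by 0.51 ± 0.10 in males and 1.04 ± 0.17 in females, and in males its size fell under the threshold without any of 7 single libraries and under 2 other settings, down to a log2 fold change of 0.386 in size. GstE14 fell by 0.84 ± 0.22 in females, with 0.640 to 1.31 CPM in exercised and 0.937 to 2.56 CPM in nonexercised flies, ranges that overlapped.

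GstT4, a Theta gene on the X chromosome, was at 174 to 213 CPM in exercised males (median 189), against 101 to 136 CPM in nonexercised males (median 125). In females it was at 71.7 to 89.4 CPM after exercise (median 79.7) and 42.0 to 67.8 CPM without (median 56.0). The exercised libraries were above the nonexercised ones in each sex, and GstT4 rose by 0.66 ± 0.04 in males and 0.56 ± 0.07 in females.

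Other lists moved between the same sets. In females the 3 Malpighian tubule genes were all lower after exercise, 5 of the 8 yolk and eggshell genes were lower, and of the 4 midgut genes Mal-A1 was higher and lambdaTry lower. In males none of the Malpighian tubule genes was called, and Jon65Aiv was the midgut gene called higher. The summed midgut genes were at 1362 to 1579 CPM in exercised males against 905 to 1619 CPM in nonexercised males, and at 578 to 859 CPM in exercised females against 522 to 885 CPM in nonexercised females. Of the 3 fat body genes, Rfabg and Fbp2 were lower after exercise in females and Fbp2 in males. Fbp2 was at most 2.39 CPM in adults, against 3414 to 6727 CPM in larvae. The ranges of Lsd-1 overlapped between exercised and nonexercised flies in both sexes. The 3 genes summed to 3126 to 4985 CPM in exercised females against 5321 to 9823 CPM in nonexercised females, without overlap. In males the sum was 4921 to 9524 CPM after exercise and 7079 to 10120 CPM without. The share of 7SL RNA was 2.09% to 3.56% in exercised males against 11.3% to 18.2% in nonexercised males, and 8.08% to 13.3% in exercised females against 5.75% to 12.7% in nonexercised females. Ribosomal RNA took 4.64% to 8.13% in exercised males against 7.44% to 11.8% in nonexercised males, and 12.7% to 19.8% in exercised females against 6.48% to 13.5% in nonexercised females. Larval genes had a low level in nonexercised adults, and Fbp1, Sgs7 and Lsp1alpha were lower in exercised adults of both sexes. Nonexercised adults shared lanes with larvae, and exercised adults did not. Exercise and the shared lane thus cannot be told apart for these genes or for Fbp2. The part of these changes in the glutathione S-transferase results was not tested. Without A31P and R820W exercised males replicate 2, 7 genes rose in males and GstE10 was no longer called. Without attP2 nonexercised males replicate 1 the count was 7 higher and 1 lower. With library totals free of ribosomal and 7SL RNA the count in males was also 7 higher and 0 lower.

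**Figure D4:**
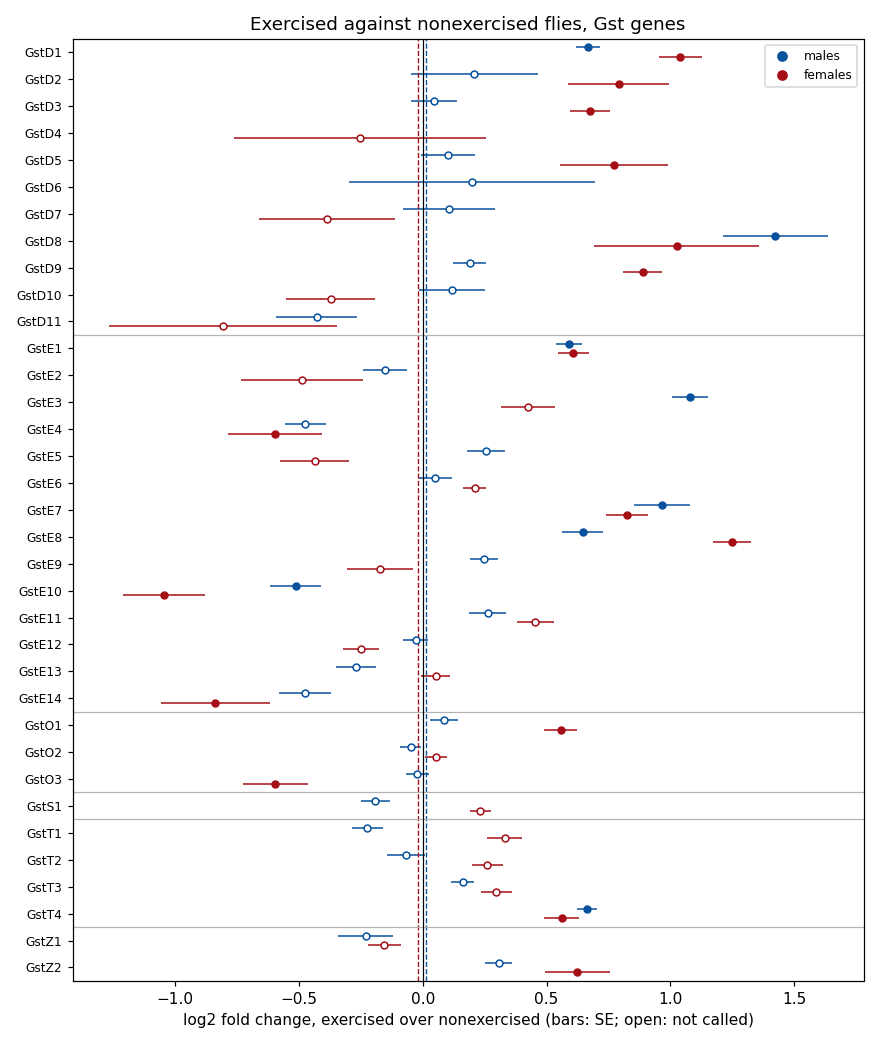
Log2 fold change of exercised over nonexercised flies for each gene tested, males in blue and females in red, with bars of 1 SE and open points for genes not called. The dashed lines mark the medians of all genes, near 0, and GstD8, GstE3 and GstE7 lead in males and GstE8, GstD1 and GstD8 in females.

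The exercise difference of males minus that of females was tested as an interaction over the 32 adult libraries. It was called for 9 of 35 genes (28.4% of all 14457 genes, 19.6% higher and 8.75% lower), with a smaller or more negative difference in males for 6 of them and a larger one for 3. With library totals free of ribosomal and 7SL RNA the split was 5 and 4, and the median of all genes was 0.15 in place of 0.11. The 3 Delta genes called, GstD3, GstD5 and GstD9, rose in females, where their log2 fold changes were 0.68 ± 0.08, 0.77 ± 0.22 and 0.89 ± 0.08, and had values of 0.04 ± 0.09, 0.10 ± 0.11 and 0.19 ± 0.07 in males. GstE3 and GstE5 had a larger difference in males than in females, by 0.62 ± 0.13 and 0.66 ± 0.16. The log2 fold change of GstE5 was 0.26 ± 0.08 in males and -0.44 ± 0.14 in females, neither of which was called. GstO3 had an interaction of 0.54 ± 0.15 and lost its call without A31P exercised females replicate 1, R820W exercised females replicate 1 or WT exercised females replicate 2, and GstO1 (-0.50 ± 0.09) stood at the threshold.

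The comparisons between genotypes addressed whether wild type or mutant feline MYBPC3 in the heart changes expression, and few glutathione S-transferase genes were called. None of the 35 genes was called against attP2 in any of the 15 comparisons of R820W, A31P or WT, each with 2 libraries a group and edgeR's quasi-likelihood test. At an unadjusted p under 0.05, between 1 and 7 of the 32 or 33 genes tested stood out per comparison. Of all genes, 279 of 10712 (WT exercised females) to 3037 of 13912 (WT exercised males) were under the same cut-off. WT exercised males were also among the comparisons with 7 members. By the adjusted call, 0.0233% to 1.14% of all genes were called. With DESeq2, GstO3 was called in nonexercised females and GstD2 in nonexercised males. In exercised males, A31P replicate 2 and R820W replicate 2 held female transcripts, with yolk and eggshell sums of 3947 and 354.5 CPM. Both were kept in the fit of that set, whose spread is shared by all genotypes. This limits the comparisons of exercised males with attP2 and with WT. With both left out, GstD2, GstD5 and GstD8 were called against attP2, in a fit with 1 library each of A31P and R820W. The share of all genes called in that fit is not given here. By set, the share of all genes called in at least 1 line against attP2 was 1.52% in exercised males, 1.77% in nonexercised males, 0.159% in exercised females, 0.208% in nonexercised females and 0.0467% in larvae. The members' median log2 fold change lay between -0.25 and 0.06 over these comparisons. It was lowest in WT larvae, where 25 of 32 genes had values under 0 and the median of all genes was -0.04. With library totals free of ribosomal and 7SL RNA that median of all genes was 0.118, so its sign depended on the scaling. In WT larvae 4 members and 1537 of all 12848 genes were under an unadjusted p of 0.05 (quasi-likelihood test).

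Against WT, 3 genes were called in the 10 comparisons of R820W or A31P, all 3 higher in R820W. With replicates paired by lane, as a replicate block, GstE3, GstE4 and GstT4 were called as well in nonexercised females, 5 genes in place of 2. The share of all genes called in at least 1 mutant line against WT was 0.0791% in exercised males, 0.715% in nonexercised males, 0.00934% in exercised females, 1.12% in nonexercised females and 0.0156% in larvae. GstE9, an Epsilon gene, was at 41.3 and 42.5 CPM in R820W nonexercised females, against 24.8 and 21.8 CPM in WT nonexercised females. A31P had 36.8 and 40.7 CPM and attP2 29.2 and 34.4 CPM. The R820W libraries were the highest of the 8, the WT libraries the lowest, and the log2 fold change of R820W over WT was 0.91 ± 0.13 (adjusted p = 0.0253, quasi-likelihood test), in a comparison where 1.04% of all genes were called. In exercised females the R820W libraries had 20.9 and 26.1 CPM and the WT libraries 38.5 and 18.2 CPM, and in nonexercised males R820W had 66.9 and 70.7 CPM and WT 85.9 and 90.7 CPM, so the order was not kept.

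GstO3, an Omega gene, was at 30.4 and 26.9 CPM in R820W nonexercised females and 30.98 and 29.1 CPM in A31P nonexercised females, against 15.6 and 17.5 CPM in WT and 17.1 and 19.1 CPM in attP2. Both mutant lines were thus above both WT and attP2. Its log2 fold change was 0.85 ± 0.14 for R820W over WT (adjusted p = 0.0369) and 0.92 ± 0.14 for A31P over WT (adjusted p = 0.0628). The same order held in 2 other sets, where GstO3 was not called. In nonexercised males R820W had 31.57 and 35.2 CPM and A31P 35.4 and 40.02 CPM, against 29.4 and 31.04 CPM in WT and 28.3 and 31.09 CPM in attP2. In larvae R820W had 105.1 and 105.8 CPM and A31P 135.5 and 103.7 CPM, against 94.0 and 93.5 CPM in WT and 95.4 and 90.0 CPM in attP2. In exercised males the mutant libraries were above WT, at 35.2 and 31.3 CPM in R820W and 38.3 and 35.6 CPM in A31P, against 27.2 and 26.3 CPM in WT. There attP2 had 33.6 and 31.8 CPM and GstO3 was not called. In exercised females R820W had 10.96 and 16.8 CPM and A31P 16.1 and 20.8 CPM, against 17.3 and 8.53 CPM in WT, where 1 WT library lay above both R820W libraries. The calls of GstE9 and GstO3 in nonexercised females were each lost without either of the A31P, WT or attP2 replicates, with adjusted p of up to 0.188 and 0.350. Both calls were kept without R820W nonexercised females replicate 1, in a fit that left 1 library of R820W in that set.

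GstD2, a Delta gene at low counts, was at 4.55 and 2.50 CPM in R820W nonexercised males, against 0.437 and 0.566 CPM in WT nonexercised males, a log2 fold change of 2.81 ± 0.44 (adjusted p = 0.0185), where 0.664% of all genes were called. A31P had 1.42 and 1.39 CPM and attP2 2.67 and 1.41 CPM, so that attP2 overlapped with R820W and the WT libraries stood lowest. In exercised males the order of GstD2 was another, with 0.770 and 2.85 CPM in R820W and 2.74 and 2.16 CPM in WT. The call was lost without R820W nonexercised males replicate 1 and without either WT or A31P replicate, with an adjusted p of up to 0.250.

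**Figure D5:**
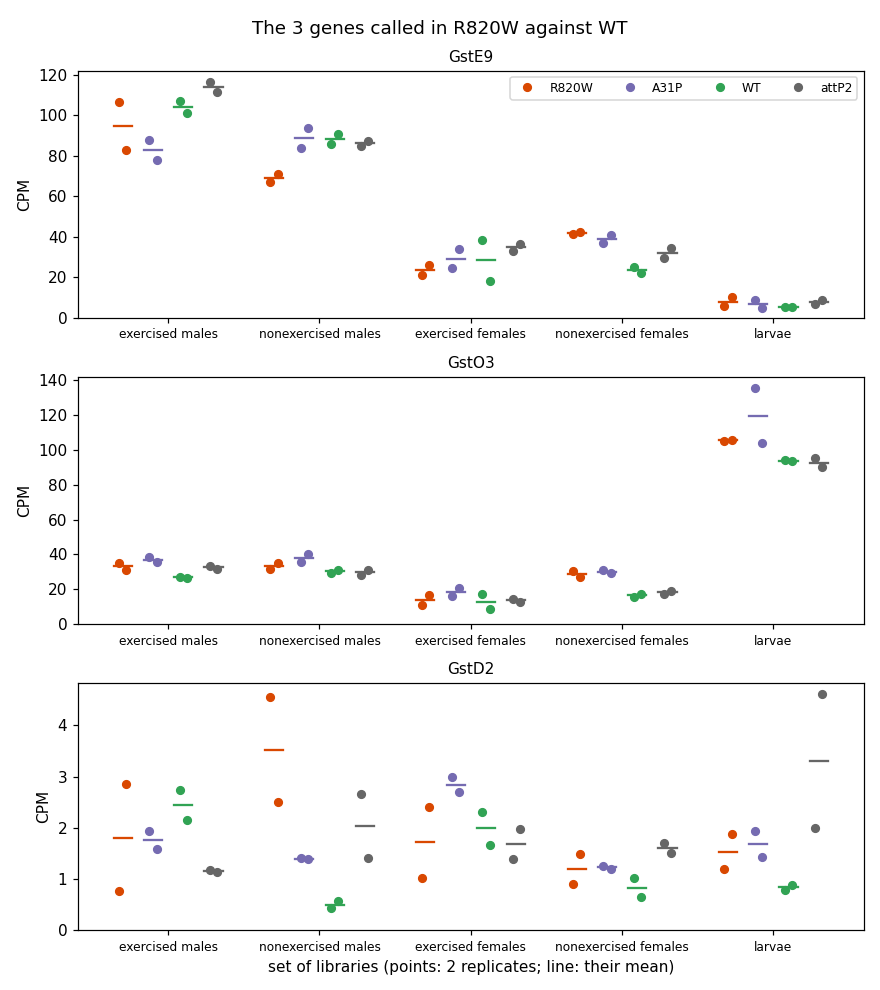
Level in CPM of GstE9, GstO3 and GstD2 in each library, by set and genotype, with a line at the mean of 2 replicates. In nonexercised females GstO3 is at 26.9 to 30.98 CPM in both mutant lines and 15.6 to 19.1 CPM in WT and attP2, and in nonexercised males GstD2 is at 2.50 and 4.55 CPM in R820W and 0.437 and 0.566 CPM in WT.

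The supply and use of glutathione was followed with 15 genes and its regulation with 6. The 15 genes were 5 higher and 4 lower in nonexercised males than in nonexercised females, and 8 higher and 3 lower in exercised males than in exercised females (medians 0.28 and 0.51, beside 0.33 and 0.69 over all genes). Among all genes 46.5% were called higher and 33.6% lower in nonexercised males, and 51.9% higher and 34.8% lower in exercised males. Against larvae, 10 were higher and 1 lower in nonexercised males, and 8 higher and 4 lower in nonexercised females. The shares of all genes were 40.3% higher and 34.4% lower in males, and 34% higher and 40% lower in females. Gclm, the modifier subunit of the enzyme that makes the first step of glutathione synthesis, was at 52.0 to 71.8 CPM in exercised males and 102 to 118 CPM in exercised females, and at 67.8 to 85.5 CPM in nonexercised males and 101 to 120 CPM in nonexercised females. It was thus lower in males, by 0.95 ± 0.05 in exercised and 0.51 ± 0.05 in nonexercised flies, and higher in adults than in larvae, which had 28.7 to 56.7 CPM. Gclc, the catalytic subunit, had 168 to 197 CPM in exercised males and 108 to 140 CPM in exercised females, a log2 fold change of 0.49 ± 0.06 that missed the size threshold. Trxr-2, a thioredoxin reductase, was at 12.3 to 19.2 CPM in all male libraries, at 1.10 to 5.91 CPM in larvae, and had no count in any library of adult females. GS and CG32495, both glutathione synthetase genes, had nearly the same counts throughout, so reads may have been split between them.

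After exercise, none of the 15 genes was called in males (8 at an unadjusted p under 0.05, quasi-likelihood test) and Ggt-1 was the single call among 14 tested in females. Among all genes 11.3% were called in males and 41.7% in females, and in males 6514 of 14090 genes were under the unadjusted cut-off. Ggt-1, which breaks down glutathione outside the cell, was at 274 to 412 CPM in exercised females, against 128 to 262 CPM in nonexercised females, without overlap, and rose by 0.83 ± 0.09. In exercised and nonexercised males it was at 49.8 to 85.7 and 41.2 to 57.5 CPM, and the interaction was -0.63 ± 0.14. Of the 6 regulators, Keap1, the inhibitor of cnc, was at 26.5 to 45.1 CPM in exercised males, against 15.98 to 24.2 CPM in nonexercised males, a rise of 0.77 ± 0.06, and at 18.9 to 22.6 CPM in exercised females, against 22.3 to 28.7 CPM in nonexercised females (-0.25 ± 0.06, not called). The factor cnc itself had log2 fold changes of 0.22 ± 0.04 in males and -0.25 ± 0.05 in females, neither called, and was lower in adults than in larvae, by 0.85 ± 0.06 in nonexercised males and 0.72 ± 0.06 in nonexercised females. The regulator ss was called lower after exercise in females (-1.16 ± 0.24), at 0.223 to 1.35 CPM against 0.977 to 2.37 CPM. The regulator maf-S was at 35.39 to 40.74 CPM in exercised and 24.45 to 32.85 CPM in nonexercised males. In females it was at 29.86 to 38.43 CPM after exercise and 23.4 to 27.3 CPM without. Hr96 had 20.25 to 24.15 CPM in exercised and 16.01 to 19.66 CPM in nonexercised males, and ranges that overlapped in females. The ranges of tgo overlapped in both sexes. No gene of either list was called between genotypes in any of the 25 comparisons, with 0 to 6 and 0 to 2 genes at an unadjusted p under 0.05. Of all genes, 170 of 12848 (A31P against WT, larvae) to 3666 of 11063 (R820W against WT, nonexercised females) were under that unadjusted cut-off. At most 1.14% of all genes were called in any of these comparisons.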

How the data were processed

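RNA from pools of whole third-instar larvae or flies was depleted of ribosomal RNA and sequenced as stranded dUTP libraries. The authors used bcl2fastq, FastQC, Cutadapt and TopHat (to remove ribosomal reads), and then mapped and counted reads with CLC Genomics Workbench on release 6 of the Drosophila melanogaster genome. The strand setting and the treatment of reads with several hits are not given in the sources used here. The deposited table holds raw counts and, per sample, TPM, RPKM and CPM computed by the authors. Here the deposited counts were tested, the deposited TPM values gave shares within a library, and the 80 columns of RPKM and CPM were not used.

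Counts were fitted with edgeR 4.0.16 (TMM scaling, filterByExpr with a minimum count of 10 and a minimum total of 15, quasi-likelihood F test) in R 4.3.3, and p-values were adjusted by Benjamini-Hochberg over all genes tested. A gene was called at an adjusted p under 0.05 and an absolute log2 fold change over 0.5. Genotypes were compared within each of the 5 sets of 8 libraries. Sex, stage and exercise were compared over 16 libraries with genotype as a covariate, and the interaction over 32. Library totals were 18493813 to 26917796 counts, of which ribosomal RNA took 4.64% to 27.4% and 7SL RNA 2.09% to 18.2%. At most 1.65% of genes had identical counts in both replicates of a group, so no pair was treated as 1 library. The replicates are described by the study as biological replicates, each a pool of animals. Replicate numbers pair larval and nonexercised libraries, since per the labels replicate 1 was in lane 7 and replicate 2 in lane 8 throughout. Deviations of same-numbered libraries correlated at 0.072 to 0.441 in nonexercised females, -0.079 to 0.112 in nonexercised males and -0.284 to 0.525 in larvae. Ranges of CPM cover that spread, and exact intervals of ratios cover counting error only.

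The members, the gene lists and the tests were chosen with earlier results of these data known. Every member was accounted for, values were given for up to 6 called members with the largest change per comparison and for GstD1, and others by counts. Alternatives were DESeq2 1.42.0, RLE size factors, totals without ribosomal and 7SL RNA, no filter on low counts, a replicate block and each library left out in turn. Plots were drawn with matplotlib 3.10.9. The fits were tested on simulated data.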

Additional observations from a re-analysis of the deposited data

Results flagged for a closer look

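The exercise difference was not the same in both sexes for 9 genes, by the interaction in edgeR's quasi-likelihood test. Values are the log2 fold change of exercised over nonexercised males minus that of females. GstD9 had -0.734 ± 0.11, GstD5 -0.704 ± 0.23, GstD3 -0.665 ± 0.13, GstE8 -0.638 ± 0.11, GstT1 -0.589 ± 0.10 and GstO1 -0.504 ± 0.09, so their difference was larger or more positive in females. GstE5 had 0.658 ± 0.16, GstE3 0.617 ± 0.13 and GstO3 0.539 ± 0.15, where the difference was larger or more positive in males. GstE8 was called higher in both sexes, GstE3 in males alone, and GstD3, GstD5, GstD9 and GstO1 in females alone. Among all genes 28.4% were called in this interaction, and exercised males and exercised females were sequenced in different lanes, so the part of the lane cannot be told apart. The call of GstO1 was lost in 13 of 38 alternatives.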

How the results depend on the processing

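Of 138 values of single genes, none reversed under any alternative, and 22 lost their call in at least 1, of which 18 did so with a library left out. Against attP2, DESeq2 called 1 gene in nonexercised females (GstO3) and 1 in nonexercised males (GstD2), and no filter on low counts called 1 in nonexercised males (GstD2), against 0 in each. Against WT in nonexercised females, DESeq2 called 4 genes against 2. Without A31P and R820W exercised males replicate 2 together, 3 genes were called against attP2 (GstD2, GstD5 and GstD8) and 4 against WT (the same 3 and GstO3), against 0 in each.

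With each library left out in turn, counts against attP2 were 0 to 4 in nonexercised females (4 without R820W replicate 1), 0 to 1 in nonexercised males and 0 to 2 in exercised males, and 0 to 0 in larvae and exercised females. Against WT they were 0 to 11 in nonexercised females (11 without R820W replicate 1), 0 to 1 in nonexercised males and 0 to 2 in exercised males, and 0 to 0 in larvae and exercised females. Each of these genotype fits left 1 library in a group. The share of all genes called in them is not given here, so these counts are not a result about the family. Males against females gave 24 to 26 calls in nonexercised and 28 to 30 in exercised flies. Adults against larvae gave 22 to 25 in each sex, exercise 7 to 10 in males and 14 to 17 in females, and the interaction 7 to 11.

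In exercised flies a number marks no shared lane, and same-numbered replicates correlated at -0.521 to 0.340 in females and -0.149 to 0.656 in males. With a replicate block, 5 genes were called against WT in nonexercised females, 23 in nonexercised females against larvae (GstE7 lost), and no other call changed. The block gave 24 and 28 calls for sex, 23 and 23 for stage, 8 and 16 for exercise in males and females, and 9 for the interaction. Depth limits GstD4, GstD6, GstD7 and GstD11, which had libraries without a count.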
